A study of Mus musculus with 9 samples.

Results

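The unfolded protein response and the integrated stress response were followed in mouse oocytes through 40 genes, chosen by name out of 26358 in the table. They comprised the stress sensors, the transcription factors that the sensors act through, stress-induced targets, and the folding and degradation genes of the endoplasmic reticulum. Poly(A) RNA was sequenced in 9 libraries, 3 for each of 3 groups. Cryopreservation-2 oocytes were stored in a straw in EG at 17.5% with trehalose at 1 M and PVA/Fe3O4/GO nanoparticles. Cryopreservation-1 oocytes were stored on a cryotop, a thin strip that holds a very small volume, in EG at 15%, DMSO at 15% and sucrose at 0.5 M. Fresh oocytes were not frozen. The methods differed at once in carrier, solutes and nanoparticles, so each was compared as a whole protocol. The labels give no strain, age or number of oocytes per library.

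When unfolded proteins build up in the endoplasmic reticulum, 3 membrane sensors respond. Ern1 (IRE1) splices the mRNA of the transcription factor Xbp1. Atf6 moves to the Golgi, where the proteases Mbtps1 and Mbtps2 release a transcription factor from it. Eif2ak3 (PERK) phosphorylates the initiation factor eIF2, which lowers translation in general and raises that of Atf4. Eif2ak1, Eif2ak2 and Eif2ak4 phosphorylate the same factor on heme shortage or mitochondrial stress, double-stranded RNA and amino acid shortage, and these inputs together make up the integrated stress response. A full-grown oocyte transcribes little and lives on stored mRNA, so that a level of mRNA in it reflects both storage and decay.

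Total counts per library ran between 49337232 and 51369012 in cryopreservation-2, between 64276885 and 80877288 in cryopreservation-1 and between 73899130 and 80100460 in fresh oocytes, so that depth and the cryopreservation-2 group cannot be told apart. The libraries carried oocyte markers: Gdf9 had at least 274031 counts in each library, and the 12 oocyte markers made up 1.46% to 2.20% of counts. Markers of cumulus and granulosa cells made up 0.00369% to 0.00791% of counts, those of immune and blood cells 0.000315% to 0.00146% and those of stromal and endothelial cells 0.00946% to 0.0199%, and in each list the range in cryopreservation-2 oocytes overlapped that in each other group. The leukocyte gene Ptprc was at 0 in 8 libraries. Other genes of these lists had reads in every library. Among them were Cd68 (39 to 411 counts) and C1qb (93 to 802) of the immune and blood list. Cyp19a1 of the cumulus and granulosa list had 1671 to 5264 counts, and Pecam1 of the stromal and endothelial list 3634 to 10767. The 40 genes together made up 0.361% to 0.401% of counts in cryopreservation-2, 0.324% to 0.362% in cryopreservation-1 and 0.292% to 0.355% in fresh oocytes. In bulk libraries such as these, fewer cells of a type and less RNA per cell cannot be told apart.

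The promoters of many stress genes carry short elements through which the response is known to act, and matches to these are shown for some of the 40 genes. RefSeq promoters (GRCm38.p6) were found for 35 of the 40 genes, without Atf6, Ppp1r15b, Manf, Hyou1 and Derl1, and 250 bases before each annotated start were searched on both strands. The endoplasmic reticulum stress element (ERSE) is CCAAT, bound by NF-Y, followed after 9 bases of any kind by CCACG, bound by ATF6 and XBP1. It was found in 6 of the 35 genes (17.1%), and in 35 of all 27025 genes in the promoter table (0.13%). The windows of those 6 genes are given here 5′ to 3′ on the strand of the gene, with the fixed letters of the element, or of its reverse complement with CGTGG first and ATTGG last, in capitals.
Creld2 (chr15:88819500-88819558, plus strand): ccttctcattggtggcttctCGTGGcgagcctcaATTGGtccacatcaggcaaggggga
Calr (chr8:84847055-84847113, minus strand): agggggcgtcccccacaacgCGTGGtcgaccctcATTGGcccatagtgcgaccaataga
Canx (chr11:50325780-50325838, minus strand): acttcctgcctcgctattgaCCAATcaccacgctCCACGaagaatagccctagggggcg
Pdia6 (chr12:17266471-17266529, plus strand): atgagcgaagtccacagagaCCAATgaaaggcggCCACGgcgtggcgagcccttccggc
Derl3 (chr10:75893222-75893280, plus strand): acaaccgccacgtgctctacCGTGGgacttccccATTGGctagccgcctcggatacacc
Syvn1 (chr19:6046512-6046570, plus strand): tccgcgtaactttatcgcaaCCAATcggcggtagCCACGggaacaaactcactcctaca
The element ran from -126 to -108 in Creld2, counted from the annotated start, and lay nearest to the start in Syvn1, from -44 to -26. These 6 genes did not move together. The log2 fold change in cryopreservation-2 relative to fresh oocytes was 1.37 for Creld2, 0.20 for Calr, 0.05 for Canx, -0.48 for Pdia6, -1.01 for Syvn1 and -1.12 for Derl3, and of these only that of Creld2 passed the test (edgeR adjusted p = 0.0113).

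Because Creld2 was the most abundant of the 40 genes and was called in both comparisons of cryopreservation-2, the 250 bases before its start are printed whole, with the element in capitals.
Creld2 (chr15:88819396-88819645, plus strand): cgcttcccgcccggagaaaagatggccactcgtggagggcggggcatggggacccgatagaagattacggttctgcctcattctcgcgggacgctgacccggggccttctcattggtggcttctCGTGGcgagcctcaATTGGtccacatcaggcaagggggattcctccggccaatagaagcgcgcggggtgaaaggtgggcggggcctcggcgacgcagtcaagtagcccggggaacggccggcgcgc

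Other elements were rarer among the 40 genes. The C/EBP-ATF response element, TGATGNAA, to which ATF4 binds with C/EBP partners, was found in Asns, Atf3, Chac1 and Herpud1, which is 4 of 35 (11.4%), against 3.91% of all genes in the promoter table. The shorter stress element ERSE-II, which is ATTGG, 1 base of any kind and CCACG, was found in Herpud1 alone (2.86% of 35, against 0.037%), and the unfolded protein response element, TGACGTGG, in Nfe2l1 alone (2.86%, against 0.603%). The windows of Atf3, Herpud1 and Nfe2l1 are shown with the matched letters in capitals. The RefSeq start used for Atf3 lies inside the gene as its deposited coordinates place it. The start with the Nfe2l1 match lies upstream of the deposited coordinates of Nfe2l1, and the other Nfe2l1 promoters held no match. In Herpud1 the capitals nearer the 5′ end belong to the C/EBP-ATF element and the later ones to ERSE-II.
Atf3 (chr1:191183416-191183463, minus strand): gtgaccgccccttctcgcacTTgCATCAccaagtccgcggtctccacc
Herpud1 (chr8:94386297-94386407, plus strand): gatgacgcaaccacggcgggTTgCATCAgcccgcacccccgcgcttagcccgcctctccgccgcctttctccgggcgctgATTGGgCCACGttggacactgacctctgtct
Nfe2l1 (chr11:96830099-96830146, minus strand): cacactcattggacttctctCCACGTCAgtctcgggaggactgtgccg
Among the genes called between cryopreservation-2 and fresh oocytes, Creld2 and Atf3 held a match, while Eif2ak1, P4hb and Edem2 held none. Manf had no promoter to search. A match of letters is a description of the sequence and does not show that a factor was bound.

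**Figure D1:**
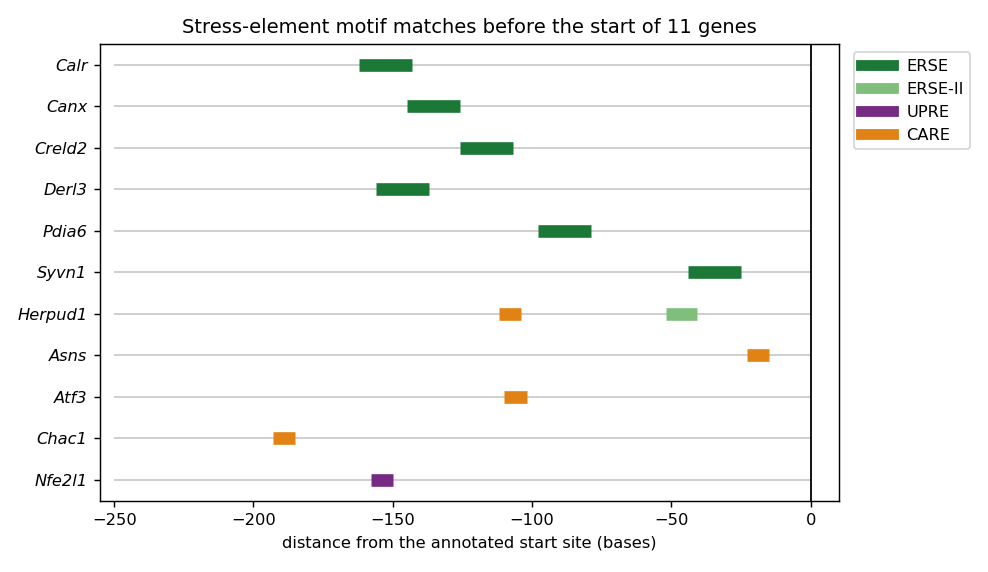
Matches to the stress elements ERSE, ERSE-II, UPRE and CARE in the 250 bases before the annotated start of 11 genes. The x axis is the distance from the start in bases, each grey line is a promoter and each coloured bar a match. ERSE was found in 6 genes, CARE in 4, and ERSE-II and UPRE in 1 each, with Herpud1 holding both a CARE and an ERSE-II.

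Fresh and frozen oocytes held these genes at widely different levels, given here as FPKM, which is read count per gene length and library size. Over the 9 libraries, 6 of the 40 genes averaged at least 50 FPKM, 6 lay between 10 and 50, 20 between 1 and 10, and 8 under 1. Creld2, a calcium-binding protein of the endoplasmic reticulum, was far above the rest. Its FPKM was 839, 665 and 719.8 in cryopreservation-2, 295, 375 and 307 in cryopreservation-1 and 208, 291 and 282 in fresh oocytes, and it alone made up 22.0% to 63.0% of the summed FPKM of the 40 genes. Ppp1r15a, the inducible subunit of the phosphatase that reverses eIF2 phosphorylation, came next by its mean over the libraries. The FPKM of Ppp1r15a was 64.6, 115 and 71.4 in cryopreservation-2, 133, 123 and 114 in cryopreservation-1 and 111, 85.0 and 114 in fresh oocytes. Edem2, which trims mannose from misfolded glycoproteins, followed at 87.7 FPKM on average, ahead of the protein disulfide isomerases P4hb (82.7 FPKM) and Pdia6 (65.9 FPKM) and of Sdf2l1 (50.3 FPKM), a partner of the co-chaperone ERdj3.

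Related genes were not stored alike. In FPKM, Edem2 stood 6.91 to 15.4 times above Edem1 and 63.6 to 268 times above Edem3 within a library. Ppp1r15a stood 33.6 to 93.9 times above Ppp1r15b, the constitutive subunit of the same phosphatase. Among the sensors of the endoplasmic reticulum, Ern1 had 4.57 to 7.26 times the FPKM of Atf6. Among the eIF2 kinases Eif2ak1 had the highest FPKM, above Eif2ak3 and Eif2ak4 in 9 of 9 libraries, with ratios of 2.27 to 11.8 and of 1.45 to 5.76. At the low end were genes that stress induces in other cells: Ddit3, Chac1, Herpud1, Atf3, Xbp1 and Trib3 averaged under 1 FPKM, as did Edem3 and Eif2ak2. Xbp1, the substrate of Ern1, had reads in 3 of 9 libraries, while Ern1 averaged 33.6 FPKM.

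**Figure D2:**
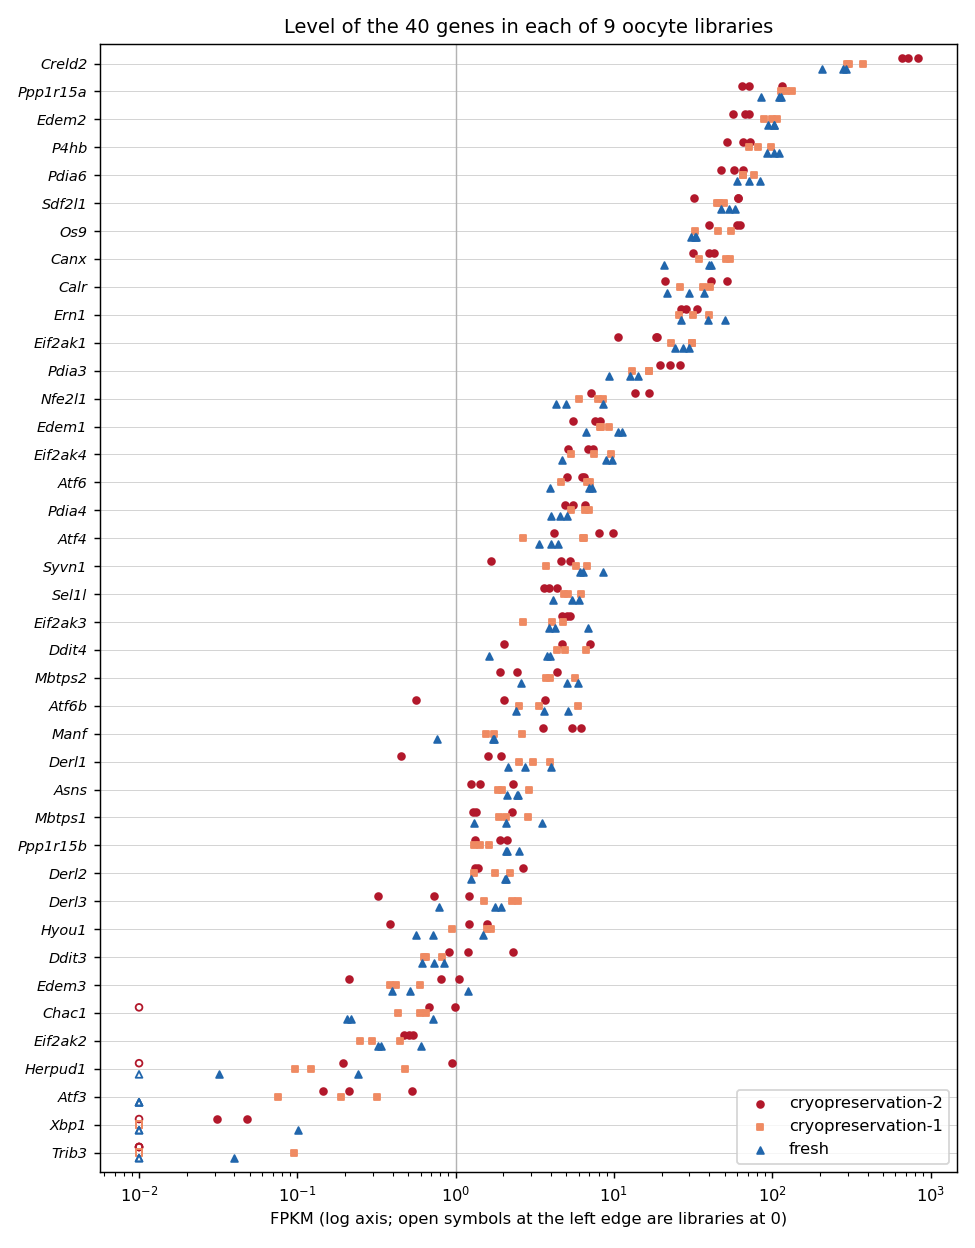
FPKM (log axis) of the 40 genes in 9 oocyte libraries, ordered by mean level; each symbol is 1 library, and open symbols at the left edge are libraries at 0. Creld2 lies at 208 FPKM or above in each library, its 3 cryopreservation-2 libraries lie above the other 6, and Atf3, Xbp1, Trib3, Herpud1 and Chac1 have libraries at 0.

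Cryopreservation-2 oocytes differed from fresh oocytes in 6 of the 39 genes tested, 3 of them higher and 3 lower. The folding genes Creld2 and Manf and the stress-induced transcription factor Atf3 rose. The eIF2 kinase Eif2ak1, the disulfide isomerase P4hb and the mannosidase-like Edem2 fell. The test was edgeR's quasi-likelihood test on the raw counts with Benjamini-Hochberg adjustment over all 17545 genes tested, and an adjusted p under 0.05 counted as a call. Of all genes tested, 5.38% were called, 3.18% higher and 2.20% lower. The median log2 fold change was -0.165 over the 39 genes and -0.0553 over all genes tested. At an unadjusted p under 0.05 there were 13 of 39, against 21.8% of all genes. All 3 cryopreservation-2 libraries lay above all 3 fresh libraries in 5 genes and below them in 7, against 15.1% and 12.4% of all genes (27.5% with both directions). The fortieth gene, Trib3, had too few counts to be tested.

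Among the 6 called genes, leaving out 1 library in turn separated Creld2 from the rest. The call of Creld2 held without each of the 9 libraries (adjusted p 0.0199 to 0.0466 with edgeR). The calls of Eif2ak1, P4hb and Edem2 were each lost without any 1 of the 9 (adjusted p 0.0661 to 0.116, 0.0689 to 0.149 and 0.0511 to 0.104), the cryopreservation-1 libraries included. Leaving out a library also let more genes pass the filter on low counts, 18309 to 18647 in place of 17545. With the 17545 genes kept, an alternative chosen after seeing the data, Creld2 again held without each of the 9 libraries, Eif2ak1 and P4hb were again lost without any 1 of them, and Edem2 held without cryopreservation-1 replicate 3 alone (edgeR adjusted p = 0.0480). Without cryopreservation-2 replicate 1, the library that was lowest of the 9 in 10 of the 32 genes averaging at least 1 FPKM, 4 genes were called: Creld2, Manf, Atf3 and Nfe2l1, all higher.

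**Figure D3:**
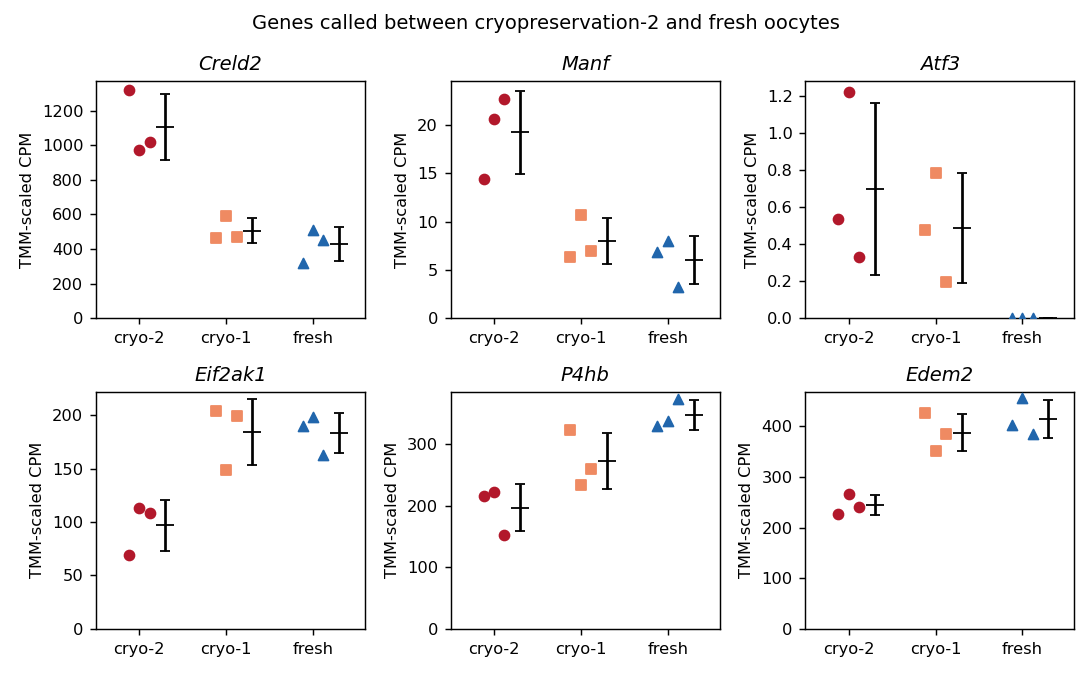
TMM-scaled CPM, which is counts relative to library size, of the 6 genes called between cryopreservation-2 and fresh oocytes, in each library (coloured symbols; cryo-2 and cryo-1 are cryopreservation-2 and cryopreservation-1), with mean and SD of 3 libraries in black. The cryopreservation-2 libraries lie above the fresh ones for Creld2, Manf and Atf3 and below them for Eif2ak1, P4hb and Edem2.

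None of the 3 sensors of the endoplasmic reticulum was called. On the CPM scale, which is counts relative to the TMM-scaled library size and holds for all library values from here on unless raw counts are named, Ern1 was at 270.4, 234 and 284 in cryopreservation-2, 295, 242 and 365 in cryopreservation-1 and 463, 277 and 381 in fresh oocytes. The fresh libraries were spread widely and overlapped both frozen groups, and the log2 fold change in cryopreservation-2 relative to fresh oocytes was -0.51 (95% interval -1.02 to 0.01, edgeR adjusted p = 0.236). Atf6 was at 66.9, 50.2 and 61.9 in cryopreservation-2, 71.5, 48.8 and 73.1 in cryopreservation-1 and 72.0, 46.7 and 79.4 in fresh oocytes. Its groups overlapped throughout, with a log2 fold change of -0.15 (95% interval -0.71 to 0.42). Eif2ak3 was at 32.6, 32.9 and 33.2 in cryopreservation-2, 28.0, 33.1 and 17.9 in cryopreservation-1 and 46.2, 30.0 and 30.4 in fresh oocytes. The cryopreservation-2 libraries were close to each other and lay inside the range of the fresh ones, with a log2 fold change of -0.11 (95% interval -0.71 to 0.49). The close relative of Atf6, Atf6b, had a log2 fold change of -0.98 (95% interval -2.22 to 0.27).

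Eif2ak1 (ENSMUSG00000029613, chr5:143817788-143904251, plus strand, GRCm38), the eIF2 kinase known as HRI, was the only sensor called of the 7 tested (14.3%, against 5.38% of all genes). Its level was 69.6, 113 and 108 in cryopreservation-2, 204, 148 and 199 in cryopreservation-1 and 189, 198 and 163 in fresh oocytes. All 3 cryopreservation-2 libraries lay below all 6 others, and cryopreservation-2 replicate 1 was the lowest. The log2 fold change relative to fresh oocytes was -0.92 (95% interval -1.43 to -0.41, edgeR adjusted p = 0.0471). That call was lost without any 1 of the 9 libraries and passed in 4 of 28 alternatives. Aimp2, on the opposite strand, overlaps Eif2ak1 and rose in the same comparison (log2 fold change 1.52, edgeR adjusted p = 0.0363), and since the strand setting of the counting is not given, reads from the overlap cannot be assigned. Eif2ak4, the kinase of amino acid shortage, and Eif2ak2, that of double-stranded RNA, had log2 fold changes of -0.38 and 0.13 with intervals that span 0.

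Of the transcription factors and the proteases that release Atf6, 1 of 7 was called (14.3%, against 5.38% of all genes tested). Atf3 (ENSMUSG00000026628, chr1:191170296-191218039, minus strand, GRCm38) is induced by many stresses in other cells. Its raw counts were 28, 67 and 20 in cryopreservation-2, 37, 61 and 12 in cryopreservation-1 and 0, 0 and 0 in fresh oocytes. The 3 fresh libraries held no read of Atf3, and each of the 6 frozen libraries held at least 12. Against a floor of 3 counts over the fresh group, Atf3 was at least 50.7-fold higher in cryopreservation-2 and at least 37.4-fold higher in cryopreservation-1 oocytes. The difference between cryopreservation-1 and fresh oocytes was not called after adjustment (edgeR unadjusted p = 0.000726). The bound for cryopreservation-2 was 31.5-fold without cryopreservation-2 replicate 2, which held 67 of the 115 reads, and 32.2-fold without fresh replicate 1, and that for cryopreservation-1 was 23.8-fold without fresh replicate 1. The call against fresh oocytes passed for cryopreservation-2 (edgeR adjusted p = 0.0238) and held without cryopreservation-2 replicate 1, cryopreservation-1 replicate 3 or fresh replicate 2, while without any of the other 6 libraries it was lost (0.0505 to 0.0702). With the 17545 genes kept it was lost without 4 libraries, cryopreservation-2 replicates 2 and 3 and fresh replicates 1 and 3 (0.0514 to 0.0663). The level was low even where it was highest, at 0.529 FPKM in cryopreservation-2 replicate 2. The floor of 3 counts over the fresh group corresponds to 0.0136 CPM, and covers counting error only.

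Atf4 and Ddit3 (CHOP), which follow eIF2 phosphorylation, did not pass. Atf4 was at 11.4, 20.4 and 24.1 in cryopreservation-2, 17.6, 17.3 and 7.08 in cryopreservation-1 and 11.7, 12.1 and 9.32 in fresh oocytes. In both frozen groups 1 library lay within or below the fresh range and 2 above it, and the log2 fold change in cryopreservation-2 relative to fresh oocytes was 0.76 (95% interval -0.11 to 1.62, edgeR adjusted p = 0.293). Ddit3 was at 2.38, 4.25 and 1.62 in cryopreservation-2, 1.28, 1.64 and 1.26 in cryopreservation-1 and 1.41, 1.37 and 1.73 in fresh oocytes. Its highest value was in cryopreservation-2 replicate 2, and the log2 fold change was 0.87 (95% interval -0.21 to 1.95, edgeR adjusted p = 0.339), and 0.33 with an offset for transcript length and GC content. Xbp1 could not be followed, since its raw counts were 7, 10 and 0 in cryopreservation-2, 0, 0 and 0 in cryopreservation-1 and 30, 0 and 0 in fresh oocytes, and a count per gene does not tell its spliced from its unspliced form. Nfe2l1, a factor that is anchored in the endoplasmic reticulum and activates proteasome genes, had a log2 fold change of 0.93 (95% interval 0.23 to 1.63) and did not pass (edgeR adjusted p = 0.118). It passed with DESeq2, without cryopreservation-2 replicate 1, with a stricter filter on low counts and with an offset for transcript length and GC content. The proteases Mbtps1 and Mbtps2 had values of -0.59 and -0.74.

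The targets and feedback genes of the integrated stress response were not called in cryopreservation-2 oocytes (0 of 5 tested, against 5.38% of all genes). Ppp1r15a was at 219, 361 and 218 in cryopreservation-2, 449, 414 and 376 in cryopreservation-1 and 365, 319.9 and 396 in fresh oocytes. Cryopreservation-2 replicates 1 and 3 lay below all other libraries and replicate 2 within their range, and the log2 fold change relative to fresh oocytes was -0.44 (95% interval -0.94 to 0.06, edgeR adjusted p = 0.294). Ppp1r15b was at 8.53, 11.4 and 12.4 in cryopreservation-2, 10.4, 8.41 and 8.89 in cryopreservation-1 and 15.9, 14.9 and 14.1 in fresh oocytes. The 3 fresh libraries lay above all 6 frozen ones, and the log2 fold change was -0.47 for cryopreservation-2 (edgeR adjusted p = 0.304). Asns, asparagine synthetase, a target of Atf4, was at 4.54, 6.80 and 3.58 in cryopreservation-2, 5.82, 6.15 and 8.87 in cryopreservation-1 and 6.46, 8.73 and 7.90 in fresh oocytes, with a log2 fold change of -0.63 (95% interval -1.37 to 0.11). Ddit4, which restrains the growth kinase mTORC1, had a log2 fold change of 0.43 (95% interval -0.55 to 1.41). Chac1, which breaks down glutathione, was at 0 in cryopreservation-2 replicate 1, and its raw counts were 0, 65 and 102 in cryopreservation-2, 95, 87 and 50 in cryopreservation-1 and 31, 32 and 100 in fresh oocytes. Trib3, a pseudokinase induced by Atf4 and Ddit3, had raw counts of 0, 0 and 0 in cryopreservation-2, 18, 0 and 0 in cryopreservation-1 and 8, 0 and 0 in fresh oocytes, so that its reads came from 1 library of cryopreservation-1 and 1 of fresh oocytes.

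**Figure D4:**
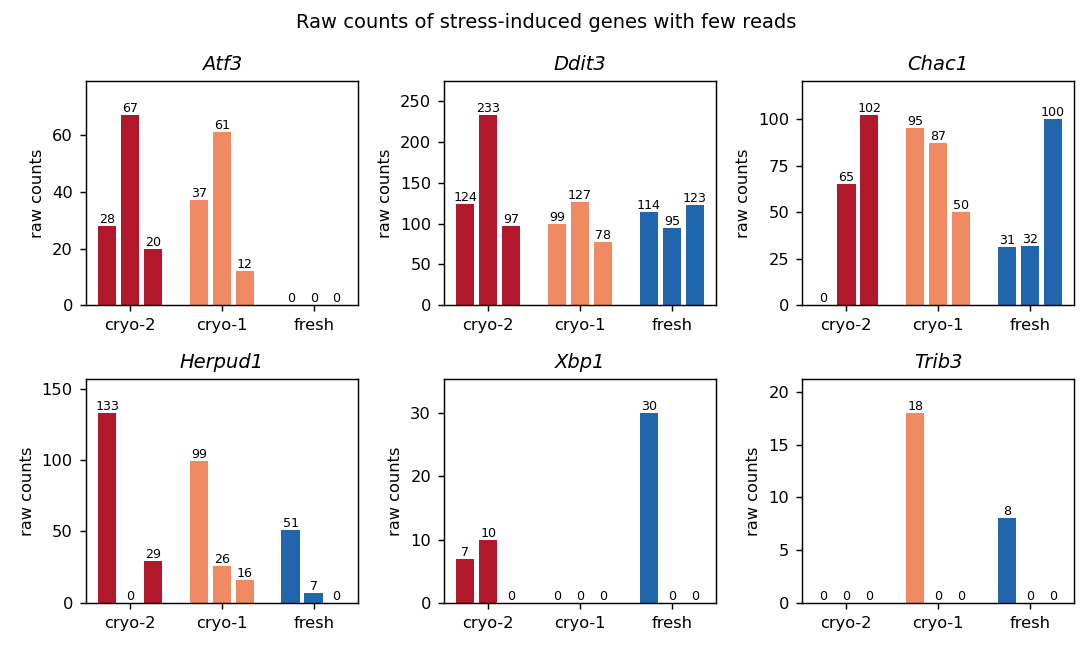
Raw counts, on linear axes that start at 0, of 6 stress-induced genes with few reads in each of 9 libraries (cryo-2 and cryo-1 are cryopreservation-2 and cryopreservation-1; bars run from replicate 1 to replicate 3). Atf3 has reads in 6 of 6 frozen and 0 of 3 fresh libraries, while Ddit3, Chac1, Herpud1, Xbp1 and Trib3 overlap between groups.

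Of the 10 folding genes tested, 3 were called (30%, against 5.38% of all genes), 2 higher and 1 lower. Creld2 (ENSMUSG00000023272, chr15:88819646-88826683, plus strand, GRCm38) was at 1321, 973 and 1022 in cryopreservation-2, 463, 589 and 469 in cryopreservation-1 and 318, 509.6 and 455 in fresh oocytes. Each cryopreservation-2 library lay above each of the other 6. The mean was 1105 ± 189 in cryopreservation-2 and 428 ± 98.6 in fresh oocytes (SD, n = 3 each), a 2.59-fold difference (log2 1.37, 95% interval 0.87 to 1.87, edgeR adjusted p = 0.0113). With an offset for transcript length and GC content the log2 fold change was 1.13 and the call was lost (edgeR adjusted p = 0.0914). Manf (ENSMUSG00000032575, chr9:106838312-106891915, minus strand, GRCm38), a small secreted protein that binds the chaperone BiP, was at 14.4, 20.6 and 22.7 in cryopreservation-2, 6.31, 10.7 and 6.95 in cryopreservation-1 and 6.86, 7.98 and 3.26 in fresh oocytes. Its cryopreservation-2 libraries also lay above the other 6, with a 3.19-fold difference from fresh oocytes (log2 1.67, 95% interval 0.82 to 2.52, edgeR adjusted p = 0.0354). That call held without cryopreservation-2 replicate 1 or fresh replicate 2 and was lost without any of the other 7 libraries (adjusted p 0.0519 to 0.107). The tested neighbours that overlap Manf, Dcaf1 and Rbm15b, had log2 fold changes of 0.25 and -0.35, neither of them called. Rbm15b lies on the same strand as Manf, and how reads were counted is not given, so reads from these overlaps cannot be assigned. The deposited start and end of Manf also differ from those in the GENCODE annotation.

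P4hb (ENSMUSG00000025130, chr11:120560298-120573253, minus strand, GRCm38), a disulfide isomerase and a subunit of prolyl hydroxylase, was at 215, 221 and 153 in cryopreservation-2, 322, 234 and 260.1 in cryopreservation-1 and 329, 338 and 374 in fresh oocytes. All cryopreservation-2 libraries lay below all fresh ones, with cryopreservation-1 between and overlapping neither. The log2 fold change in cryopreservation-2 relative to fresh oocytes was -0.82 (95% interval -1.27 to -0.36, edgeR adjusted p = 0.0471). Its relatives did not share one direction: Pdia3 had 0.79 (edgeR adjusted p = 0.0802), Pdia4 0.19 and Pdia6 -0.48 (edgeR adjusted p = 0.197), none of which passed. Pdia3, which works with the lectin chaperones, passed with DESeq2 and with limma on log2(FPKM + 1) or log2(FPKM + 0.1). It also passed with the filter at 5 CPM and with the length and GC offset. The lectin chaperones themselves, Calr and Canx, had log2 fold changes of 0.20 (95% interval -0.50 to 0.90) and 0.05 (-0.52 to 0.62). Sdf2l1 was at 41.2, 72.6 and 69.8 in cryopreservation-2, 56.8, 63.0 and 57.3 in cryopreservation-1 and 66.1, 82.3 and 61.8 in fresh oocytes. Its lowest value was in cryopreservation-2 replicate 1, and the log2 fold change was -0.20 (95% interval -0.73 to 0.34). Hyou1, a large chaperone of the Hsp70 family, was at 3.22, 9.43 and 11.9 in cryopreservation-2, 13.9, 13.2 and 7.68 in cryopreservation-1 and 12.1, 5.29 and 6.16 in fresh oocytes. The groups overlapped, and the interval of its log2 fold change, -1.03 to 1.15, spans more than a doubling in each direction.

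Summed over the 10 folding genes, FPKM was 985 to 1069.6 in cryopreservation-2, 599 to 658 in cryopreservation-1 and 523 to 601 in fresh oocytes. Of that sum, Creld2 made up 665 to 839 FPKM in cryopreservation-2, 295 to 375 in cryopreservation-1 and 208 to 291 in fresh oocytes. A sum without Creld2 was taken over the rest of the 40 genes, not over the folding genes alone. It was 493 to 689.8 FPKM in cryopreservation-2, 661 to 785 in cryopreservation-1 and 622 to 737 in fresh oocytes, and the ranges overlapped. Hspa5 (BiP) and Hsp90b1, the abundant chaperones of the endoplasmic reticulum that are standard readouts of its stress, are not among the 40. Hspa5 was at 93.3, 116 and 90.3 in cryopreservation-2, 99.7, 83.6 and 65.2 in cryopreservation-1 and 97.6, 89.2 and 66.0 in fresh oocytes, with a log2 fold change of 0.24 in cryopreservation-2 relative to fresh oocytes (95% interval -0.26 to 0.75, edgeR adjusted p = 0.609). Hsp90b1 had 0.14 (95% interval -0.33 to 0.61, edgeR adjusted p = 0.783). For both genes the cryopreservation-2 and fresh libraries overlapped.

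The degradation genes had 1 call among 10 (10%, against 5.38% of all genes tested). A negative log2 fold change was found in 8 of the 10 (6 of 10 with the length and GC offset), against 52.4% of all genes tested. Edem2 (ENSMUSG00000038312, chr2:155701677-155729475, minus strand, GRCm38) was at 226, 266 and 241 in cryopreservation-2, 425, 351 and 384 in cryopreservation-1 and 402, 456 and 384 in fresh oocytes. The cryopreservation-2 libraries lay below all 6 others, and the log2 fold change relative to fresh oocytes was -0.76 (95% interval -1.14 to -0.38, edgeR adjusted p = 0.0326). Syvn1 (HRD1), the ubiquitin ligase of this pathway, and its partner Sel1l had values of -1.01 (edgeR adjusted p = 0.152) and -0.52 (0.157), and their cryopreservation-2 libraries lay below all fresh ones without passing. The derlins, which take part in moving misfolded proteins out of the endoplasmic reticulum, had -1.31 for Derl1, -0.10 for Derl2 and -1.12 for Derl3. For Derl1 the CPM was 1.74, 5.75 and 6.67 in cryopreservation-2, against 14.9, 11.7 and 8.48 in fresh oocytes (edgeR adjusted p = 0.127). With the length and GC offset Syvn1 and Derl3 were called lower (edgeR adjusted p = 0.0193 and 0.0373). Os9, a lectin that hands glycoproteins to Sel1l, had a value of 0.61 in the other direction (edgeR adjusted p = 0.155), and its CPM was 121, 176 and 163 in cryopreservation-2, against 96.7, 104 and 100.2 in fresh oocytes. Edem1 and Edem3 had -0.53 and -0.16. Herpud1, a scaffold of the degradation complex that stress induces in other cells, had raw counts of 133, 0 and 29 in cryopreservation-2, 99, 26 and 16 in cryopreservation-1 and 51, 7 and 0 in fresh oocytes, uneven within each group (log2 fold change 2.03, edgeR adjusted p = 0.583).

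**Figure D5:**
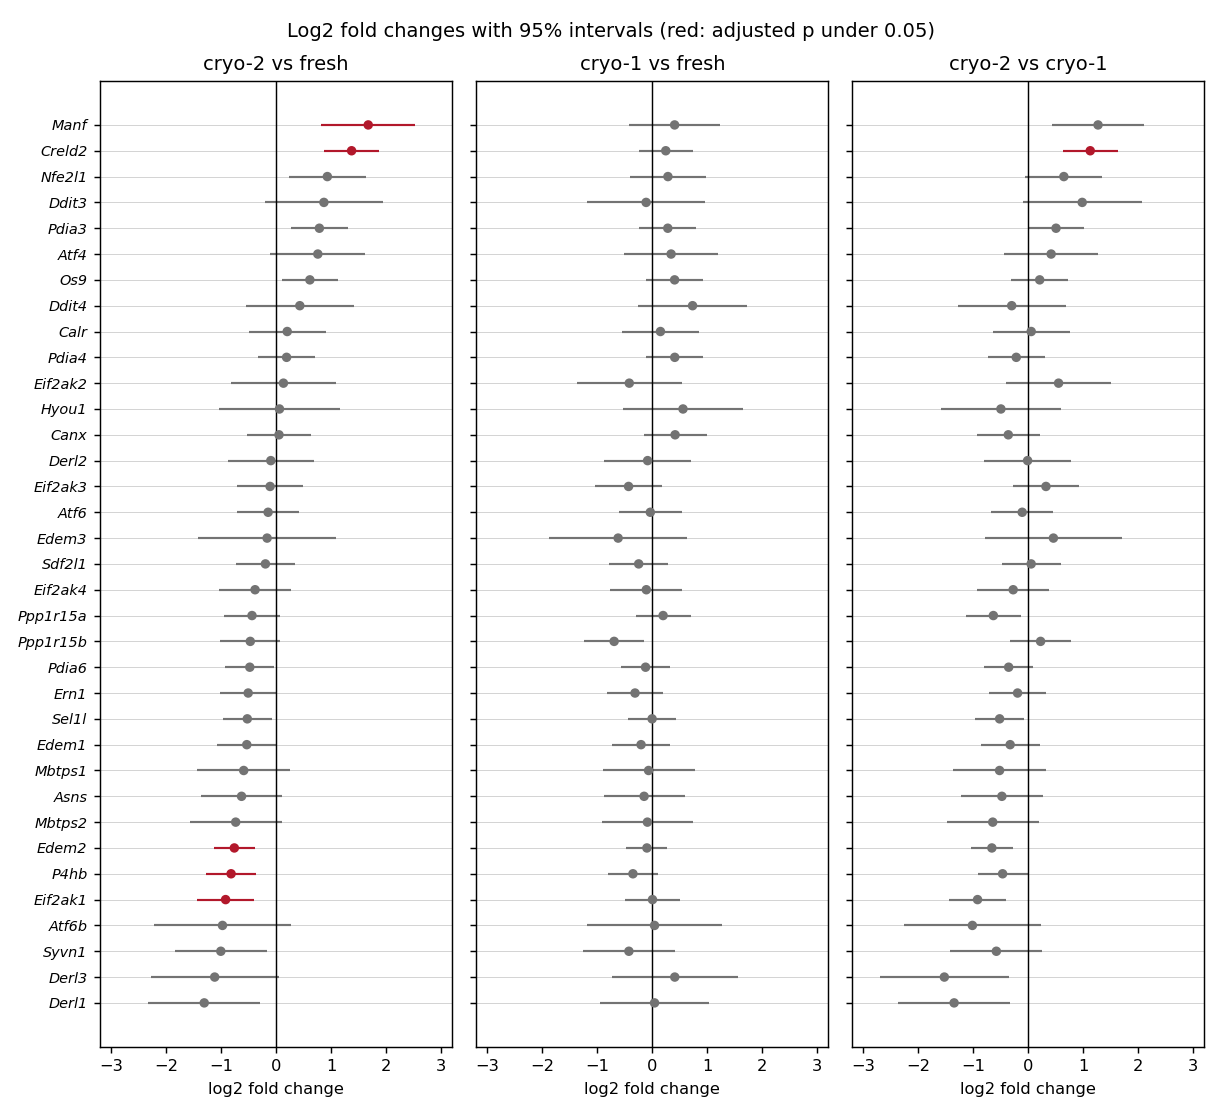
Log2 fold changes (points) with 95% intervals (lines) of the 35 genes with reads in each library, in cryopreservation-2 relative to fresh, cryopreservation-1 relative to fresh and cryopreservation-2 relative to cryopreservation-1 oocytes (cryo-2 and cryo-1 in the panel titles); red marks an edgeR adjusted p under 0.05. Red points are Manf, Creld2, Edem2, P4hb and Eif2ak1 in the left panel, none in the middle and Creld2 in the right.

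In cryopreservation-1 relative to fresh oocytes edgeR called 0 of the 39 genes tested and 0 of all 17545 (background 0.00%). The smallest adjusted p over all genes was 0.337, while 2 of the 39 had an unadjusted p under 0.05, against 4.72% of all genes. DESeq2 called 1 of the 39, Atf3, whose unadjusted p was 0.000726 with edgeR. The other gene with an unadjusted p under 0.05 was Ppp1r15b, with a log2 fold change of -0.69 (95% interval -1.24 to -0.14, edgeR unadjusted p = 0.0181 and adjusted p = 1). The genes called in cryopreservation-2 oocytes had here log2 fold changes of 0.25 for Creld2, 0.41 for Manf, 0.00 for Eif2ak1, -0.35 for P4hb and -0.10 for Edem2. The 95% interval for Creld2, -0.25 to 0.74, does not reach a doubling, and that for Eif2ak1 was -0.50 to 0.51. All 3 cryopreservation-1 libraries lay above all fresh ones in 3 genes, Atf3, Ddit4 and Pdia4 (6.37% of all genes did), and below them in 2, Ppp1r15b and P4hb (3.72% of all genes, 10.1% with both directions). The median log2 fold change was close to 0, at -0.0029 over the 39 genes and 0.0238 over all genes tested. Both frozen groups were compared with the same 3 fresh libraries, so that the comparisons with fresh oocytes are not independent of each other.

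Set directly against each other, the methods differed in 1 of the 39 genes, which was higher, against 2.75% of all genes (1.50% higher and 1.25% lower). Creld2 was 2.18-fold higher in cryopreservation-2 than in cryopreservation-1 oocytes (log2 1.12, 95% interval 0.63 to 1.62, edgeR adjusted p = 0.0308). That call held without any 1 fresh library and was lost without any 1 of the 6 frozen libraries (adjusted p 0.0507 to 0.144), and with the 17545 genes kept it also held without cryopreservation-2 replicate 1 or 2. It was lost with the length and GC offset (edgeR adjusted p = 0.0891), under which Manf was called higher and Derl3 lower. Manf, Eif2ak1 and Edem2 had log2 differences of 1.27, -0.92 and -0.66 and missed the threshold (edgeR adjusted p = 0.0993, 0.0621 and 0.0657), although the groups did not overlap in any of the 3. DESeq2 and limma on log2(FPKM + 1) called those 3 genes as well. For P4hb the difference was -0.47 (95% interval -0.92 to -0.01) and for Atf3 0.52 (-1.94 to 2.97), and neither passed (edgeR adjusted p = 0.248 and 0.879), although the groups did not overlap for P4hb. In all, 9 of the 39 had an unadjusted p under 0.05, against 18.9% of all genes. All 3 cryopreservation-2 libraries lay above all cryopreservation-1 libraries in 3 genes and below them in 8, against 13.8% and 15.2% of all genes (29.0% with both directions). The median difference was -0.196 over the 39 genes and -0.0659 over all genes tested.

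Beyond the 40, another 136 tested genes of the same pathways were read from lists of endoplasmic reticulum chaperones, oxidative folding, glycan processing, translocation and signal peptide processing, degradation, regulators of the unfolded protein response, and the integrated stress response. In cryopreservation-2 relative to fresh oocytes 11 of the 136 were called, 6 higher and 5 lower, against the 5.38% of all genes. The median log2 fold change was -0.174. Higher were Spcs1 (2.70), a subunit of signal peptidase, Ssr4 (2.74), a subunit of the translocon-associated complex, Rnf5 (1.62), a degradation ligase, Sil1 (1.26), the nucleotide exchange factor of BiP, Eif2b3 (1.04), a subunit of the exchange factor of eIF2, and Tmbim6 (0.89), an inhibitor of Ern1. Spcs1 had a CPM of 38.5, 35.1 and 32.4 in cryopreservation-2, 10.5, 15.8 and 4.69 in cryopreservation-1 and 3.52, 6.67 and 6.15 in fresh oocytes. Tmbim6 had a CPM of 310.3, 309 and 300.3 in cryopreservation-2, 212, 233 and 196 in cryopreservation-1 and 165, 163 and 167 in fresh oocytes. In both genes each cryopreservation-2 library lay above each of the other 6.

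Lower among these were Aldh18a1 (-1.20), which makes proline precursors, Srpr (-1.20), a subunit of the receptor of the signal recognition particle, Txndc11 (-1.10), Slc3a2 (-0.81), the heavy chain of amino acid exchangers, and Mthfd2 (-0.65), a mitochondrial folate enzyme. In other cells Aldh18a1, Slc3a2 and Mthfd2 are induced through Atf4. Mthfd2 had a CPM of 315, 379 and 353 in cryopreservation-2, 624, 559 and 534 in cryopreservation-1 and 558, 568 and 523 in fresh oocytes, with the cryopreservation-2 libraries below the other 6. Among the 37 tested genes of the eIF2, eIF2B and target list, 1 was called higher and 3 lower. Over all genes tested 3.18% were called higher and 2.20% lower. Cryopreservation-1 relative to fresh oocytes had 0 of the 136 called with edgeR, and DESeq2 called 1. With edgeR 13 of the 136 had an unadjusted p under 0.05, against 4.72% of all genes. Between the methods 5 of 136 were called against the 2.75% of all genes, all lower in cryopreservation-2: Aldh18a1 (-1.40), Rnf185 (-1.13), a degradation ligase, Txndc11 (-1.04), Gars (-0.92), the glycyl-tRNA synthetase, and Mthfd2 (-0.71). That direction depended on the fit: 11 were called higher and 12 lower with DESeq2, 8 and 8 with either limma fit, 5 and 5 with the filter at 5 CPM, 1 and 3 with RLE size factors and 5 and 2 with the length and GC offset. Leaving out 1 library brought the 11 calls to between 2 and 7 and the 5 calls to between 0 and 4, whichever library it was, and DESeq2 made 29 and 23.

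Transcript length moved with the fold changes. Across genes, which are not independent replicates, the Spearman correlation of transcript length with the log2 fold change in cryopreservation-2 relative to fresh oocytes was -0.324 over the 39 genes and -0.215 over 17520 genes with a length. With an offset for length and GC content fitted over all genes, the call of Manf held (edgeR adjusted p = 0.0207), as did those of Atf3 (0.0194), Eif2ak1 (0.0342) and Edem2 (0.0424), while those of Creld2 (0.0914) and P4hb (0.158) were lost. Over the whole table the calls split into 558 higher and 386 lower without the offset, 489 higher and 610 lower with it, and 1249 higher and 439 lower with limma on log2(FPKM + 1). The length trend was not confined to that comparison. In cryopreservation-1 relative to fresh oocytes the correlation was -0.38 over the 39 genes and -0.0925 over all genes with a length. Between the methods it was -0.202 and -0.174.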

How the data were processed

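Poly(A) RNA of mouse oocytes was sequenced in 9 dUTP libraries, per the labels' protocols. The submitters' processing notes name cutadapt 1.9, HISAT2 2.0.4, StringTie 1.3.4d and GRCm38. How reads were counted, on which strand and against which annotation is not given in the sources used here. Raw read counts and FPKM were deposited by the authors for 26358 genes. No label ties replicates to separate animals or pools, so the p-values cover the spread among these libraries alone, and that spread may be technical. Libraries of a group differed by more than sampling noise (chi-square per degree of freedom of at least 78.0).

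The counts were analysed with edgeR 4.0.16 (R 4.3.3): filterByExpr with a minimum count of 10 and total of 15 left 17545 genes, TMM scaled the libraries, and all 9 entered 1 quasi-likelihood fit with 1 coefficient per group. P-values were adjusted by Benjamini-Hochberg over all genes tested. The steps were tested on simulated data. CPM are TMM-scaled. FPKM were used to compare levels between genes, for sums over genes in each library and in the limma alternatives. Alternatives were RLE size factors, DESeq2 1.42.0, limma 3.58.1 on log2(FPKM + 1) or log2(FPKM + 0.1) for genes averaging at least 1 FPKM, no filter, a mean of at least 5 CPM, the compared groups alone, the replicate number as a block, an offset for transcript length and GC content (mgcv 1.9.3), and each library left out, with the filter applied anew or, chosen after seeing the data, with the same genes kept. PCR copies were not told apart, so floors of 3 counts cover counting error only.

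The 40 genes and the pathway lists were chosen with earlier results of these data known. Values in every library are given for genes called in any comparison, the 3 smallest p-values per comparison, the 3 highest mean FPKM and 12 branch genes and targets. Other pathway genes are named if called. Deviations of same-numbered cryopreservation-1 and fresh libraries correlated at 0.269, 0.407 and 0.473 across 8095 genes. Differently numbered libraries of these groups correlated at -0.374 to 0.094. Cryopreservation-2 replicate 1 and cryopreservation-1 replicate 3, which differ in number, reached 0.463, so such values do not establish that replicates were paired. With the replicate block 0 of the 39 genes were called in cryopreservation-1 relative to fresh oocytes, as without it.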

Additional observations from a re-analysis of the deposited data

How the results depend on the processing

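For cryopreservation-2 relative to fresh oocytes the 6 calls among the 39 genes became 4 with RLE size factors (3 higher and 1 lower), 9 with DESeq2, 6 and 5 with limma, 7 with the filter at 5 CPM, 8 with the length and GC offset, 3 with no filter, 1 with the 2 groups alone, 1 with the replicate block, 0 with the 2 groups alone and the replicate block (an alternative chosen after seeing the data), and 1 to 4 with 1 library left out. The 11 calls in the pathway lists became 29 with DESeq2, 17 with either limma fit (13 higher and 4 lower), 13 with the length and GC offset (5 higher and 8 lower), 6 with no filter, 4 with the 2 groups alone, 6 with the replicate block, 0 with both, and 2 to 7 with 1 library left out. Between the methods the 1 call became 4 with DESeq2, 4 and 3 with limma at the pseudocounts 1 and 0.1, 2 with the filter at 5 CPM, 2 other genes, Manf and Derl3, with the length and GC offset, 0 with either fit with the replicate block, and 0 to 1 with 1 library left out. The 5 pathway calls there became 23 with DESeq2, 16 with either limma fit, 10 with the filter at 5 CPM, 2 with no filter, 2 and 0 with the replicate block in all 9 libraries and in the 2 groups alone, and 0 to 4 with 1 library left out. For cryopreservation-1 relative to fresh oocytes DESeq2 called 1 gene among the 39 and 1 in the pathway lists, and the other alternatives called 0. Calls of Creld2 against fresh oocytes passed in 26 of 28 alternatives, those of Manf in 11 of 28, Atf3 in 12 of 25, Edem2 in 7 of 28, and Eif2ak1 and P4hb in 4 of 28 each, where each library was left out both with the filter applied anew and with the 17545 genes kept. Replicate numbers did not pair the cryopreservation-2 libraries (correlations of -0.229, 0.168 and -0.303 with fresh).

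Some genes that were not called in cryopreservation-2 relative to fresh oocytes changed sign, and the cause was not tested. For Atf6 (-0.15 on the log2 scale) limma gave 0.00575 and 0.0130, the length and GC offset 0.0458 and the fits with 1 library left out -0.34 to 0.00747 (positive without fresh replicate 3). For Eif2ak3 (-0.11) limma gave 0.0392 and 0.0522, the offset 0.0290 and the fits with 1 library left out -0.22 to 0.16 (positive without fresh replicate 1). Xbp1 (-0.24) had 0.88 with the replicate block and -0.92 to 0.35 with 1 library left out (positive without cryopreservation-2 replicate 3). Chac1 (0.36) had -0.51 with the 2 groups alone and the replicate block, -0.47 with the offset and -0.30 to 1.19 with 1 library left out (negative without cryopreservation-2 replicate 3). With 1 library left out, Sdf2l1 (-0.20) had -0.31 to 0.0807 (positive without cryopreservation-2 replicate 1), and Hyou1 (0.06) had -0.28 to 0.56 (negative without cryopreservation-2 replicate 2 or 3 or fresh replicate 2 or 3). With the offset Ddit4 (0.43) had -0.0014, Derl2 (-0.10) 0.0661 and Edem3 (-0.16) 0.0899, and Calr, Canx, Derl2, Edem3 and Eif2ak2 each changed sign in at least 1 fit that left out a library. Xbp1 gave no value without fresh replicate 1, since the other fresh libraries were at 0. The offset also moved the median of all genes to -0.149 in cryopreservation-1 relative to fresh oocytes. Small changes, and any change in Xbp1, Trib3, Chac1 and Herpud1, were below what these counts and 3 libraries a group can show.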
